A study of Mus musculus with 5 samples.

Results

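The genes described here are 8 transcription factors of the rhombic lip and its granule cell lineage: Barhl1, Pax6, Meis1, Meis2, Pbx3, Lmx1a, Eomes and Lhx9. They were chosen by symbol, and all 8 were among the 17739 genes of the deposited expression table. Of these, 7 hold a homeobox, the DNA-binding domain that gives homeobox factors their name. Eomes, also called Tbr2, is a T-box factor, so the set is described here as rhombic lip and granule factors. RNA was measured in cerebellar medulloblastoma cells from Math1-Cre;Gli2A mice, which carry the Gli2A allele (R26;Gli2A in the cross) and received doxycycline from embryonic day 0. In all 5 samples GLI2, a transcription factor of the Sonic hedgehog pathway, is labelled active, and they form 1 group. They are called tumours 1, 5, 8, 14 and 15 after their titles. Cre is driven by Math1 (Atoh1), a gene of rhombic lip progenitors, and each sample is a bulk papain suspension of cerebellar tumour, so that a difference in the share of a cell type and a difference in RNA per cell cannot be told apart. Age was not given in the labels, which also do not state that each tumour came from a separate animal. Errors describe how far these 5 samples spread, and some of that spread may be technical. The p-values refer to these 5 samples only and do not measure the size of the spread.

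The rhombic lip is the dorsal germinal edge of the embryonic hindbrain. In the mouse it gives rise in succession to glutamatergic neurons of the cerebellar nuclei, granule cell progenitors and unipolar brush cells, and its factors follow these fates. Barhl1, Pax6 and Meis1 are known from granule cells, with Pbx3 a TALE-class partner of Meis and Hox proteins. Eomes marks unipolar brush cells, Lmx1a the roof plate and unipolar brush cells, and Lhx9 and Meis2 neurons of the cerebellar nuclei.

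The 4 granule lineage and partner factors were abundant, the unipolar brush cell factors were intermediate, and the nuclear neuron factors Meis2 and Lhx9 were low. Values are on a log2 scale, read here as regularised-log values, which correct for library size but not for gene length. Pax6, a paired-box and homeobox factor of granule cells (GRCm38 chromosome 2, 105668900 to 105697364), had 13.30, 13.39, 13.37, 13.22 and 13.21 in tumours 1, 5, 8, 14 and 15. The 5 values lay within 0.18 of each other and averaged 13.30 ± 0.08 (SD, n = 5), above 98.8% of all genes. Barhl1, a BarH-like factor of rhombic lip and granule progenitors (chromosome 2, 28907679 to 28916668), had 12.22, 12.75, 12.61, 12.84 and 12.74 in the same order of tumours, with a mean of 12.63 ± 0.25 (SD, n = 5). Tumour 1 was the lowest, and the other 4 were close together. Meis1, a TALE homeobox factor of the granule lineage (chromosome 11, 18879817 to 19018985), had 11.78, 11.92, 11.84, 11.80 and 11.68, with a mean of 11.80 ± 0.09. Tumour 5 was the highest and tumour 15 the lowest, in a narrow range. Pbx3 (chromosome 2, 34171457 to 34373142) had 10.94, 10.56, 10.73, 10.71 and 10.68, with a mean of 10.72 ± 0.14. Here tumour 1 was the highest and tumour 5 the lowest.

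Eomes (chromosome 9, 118478212 to 118486132) had 7.06, 7.51, 7.35, 7.57 and 7.72 in tumours 1, 5, 8, 14 and 15, with a mean of 7.44 ± 0.25 (SD, n = 5). Tumour 1 was the lowest and tumour 15 the highest. Lmx1a, a LIM homeobox factor (chromosome 1, 167689237 to 167848741), had 6.60, 6.11, 6.44, 6.07 and 6.72, with a mean of 6.39 ± 0.29, the largest SD of the 8 genes. It was high in tumours 1 and 15 and low in tumours 5 and 14. Eomes lay above 38.8% and Lmx1a above 30.8% of all genes.

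Meis2, the TALE paralogue of Meis1 (chromosome 2, 115863064 to 116065839), had 3.68, 3.75, 3.71, 3.64 and 3.93, with a mean of 3.74 ± 0.11. It was highest in tumour 15, and the other 4 were close together. Lhx9, a LIM homeobox factor of early rhombic lip derivatives (chromosome 1, 138825186 to 138848577), had 3.01, 3.05, 3.01, 3.05 and 3.01, with a mean of 3.03 ± 0.02. Meis2 lay above 16.3% and Lhx9 above 12.3% of all genes. The regularised log shrinks differences at weakly expressed genes, so the spread of these 2 genes is understated. Of the 8 genes, 6 had a mean of at least 5, against 77.2% of all genes, and 4 had a mean of at least 10, against 29.4%. The median of the 8 means was 9.08, beside 8.55 over all genes.

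**Figure D1:**
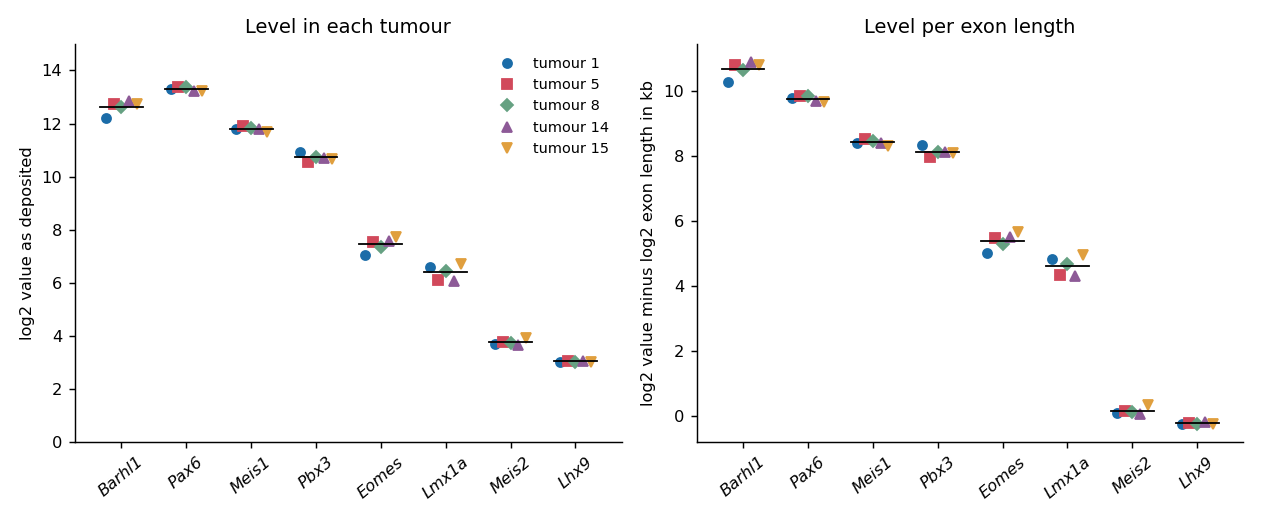
The 8 factors in each of the 5 tumours, as deposited on a log2 scale (left) and after subtracting log2 of the exon length in kb (right); symbols are tumours and bars are means over 5 tumours. Barhl1, Pax6, Meis1 and Pbx3 lie above Eomes and Lmx1a in every tumour, and Meis2 and Lhx9 lie lowest.

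Because longer transcripts collect more reads, levels of different genes were compared after subtracting log2 of the exon length in kb (merged exons, GENCODE M21). On this length-scaled log2 scale Barhl1 averaged 10.67 ± 0.25 and Pax6 9.75 ± 0.08, above 97.6% and 94.0% of genes. Meis1 averaged 8.41 ± 0.09, Pbx3 8.11 ± 0.14, Eomes 5.39 ± 0.25, Lmx1a 4.62 ± 0.29, Meis2 0.15 ± 0.11 and Lhx9 -0.22 ± 0.02 (SD, n = 5 each). Each gene exceeded the next in this order in 5 of 5 tumours, and the ranges of Meis1 and Pbx3 overlapped. The top of the order depended on the length used: Barhl1 minus Pax6 was 0.92 with merged exons and -0.39 with the longest annotated transcript. Meis1 minus Pbx3 likewise was 0.29 with merged exons and -0.32 with the longest transcript.

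Related genes were then compared within each tumour by an exact permutation test that flips the signs of the 5 differences (two-sided). At this size the test cannot give a p below 0.0625, so no pair could pass 0.05. Among the paralogues compared, the widest gap was in the Meis genes. Meis1 exceeded Meis2 by 8.28, 8.36, 8.33, 8.35 and 7.95 length-scaled log2 units in tumours 1, 5, 8, 14 and 15. The mean difference was 8.25 ± 0.17, or 305-fold (SD, n = 5; exact p = 0.0625, adjusted p = 0.0694 over the 10 pairs tested, of which 9 are given here). With the longest annotated transcript as length it was 7.60. Tumour 15, where Meis2 was highest and Meis1 lowest, had the smallest gap. Meis3, the remaining Meis gene, averaged 8.46 on the length-scaled log2 scale and so lay beside Meis1. Barhl1 exceeded its paralogue Barhl2, another rhombic lip factor, by 1.35 ± 0.32 length-scaled log2 units, with 0.91 in tumour 1 and 1.67 in tumour 15 as the extremes.

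The promoter windows of Meis1 and Meis2 are shown because these paralogues differed most in level. They run from 250 bases before to 50 bases after a RefSeq transcript start on GRCm38.p6, at chr11:19018920-19019219 and chr2:116064570-116064869, both on the minus strand and printed 5′ to 3′ on that strand. Capitals would mark CAGCTG or CAGATG (E-boxes, the motif class bound by Atoh1 and other basic helix-loop-helix factors), TAATTA (a homeobox core), TGACAG (a MEIS core) or GACCACCCA (a GLI site), on either strand.
Meis1: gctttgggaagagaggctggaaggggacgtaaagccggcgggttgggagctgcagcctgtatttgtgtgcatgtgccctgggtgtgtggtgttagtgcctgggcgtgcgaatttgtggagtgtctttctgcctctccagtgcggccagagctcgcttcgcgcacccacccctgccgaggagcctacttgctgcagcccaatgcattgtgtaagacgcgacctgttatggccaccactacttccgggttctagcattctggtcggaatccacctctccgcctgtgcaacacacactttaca
Meis2: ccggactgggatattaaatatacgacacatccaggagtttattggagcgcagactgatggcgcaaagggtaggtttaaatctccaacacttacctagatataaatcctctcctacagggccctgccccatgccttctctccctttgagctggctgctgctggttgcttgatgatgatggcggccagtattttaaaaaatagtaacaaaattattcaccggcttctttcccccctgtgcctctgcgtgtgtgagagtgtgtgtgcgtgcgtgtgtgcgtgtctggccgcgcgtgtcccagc
Neither window held any of these motifs. The GC content was 58.3% for Meis1 and 51.0% for Meis2.

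For the unipolar brush cell and nuclear neuron factors, Pax6 exceeded Eomes by 4.37 ± 0.30 length-scaled log2 units, and Eomes exceeded Tbr1, its T-box relative, by 3.02 ± 0.25, each in 5 of 5 tumours (exact p = 0.0625 and adjusted p = 0.0694 by the same permutation). Lmx1a lay below Eomes, with a difference of -0.76 ± 0.42, from -1.21 in tumour 14 to -0.17 in tumour 1. Barhl1 exceeded Lhx9 by 10.89 ± 0.24. Lhx9 lay below Lhx2, a LIM homeobox factor also known from nuclear neuron precursors, with a difference of -5.94 ± 0.20. For Lmx1a, a LIM factor, and its paralogue Lmx1b the gap differed widely between tumours. Lmx1a minus Lmx1b was 0.15, 1.27, 0.13, 1.09 and 1.48 length-scaled log2 units in tumours 1, 5, 8, 14 and 15. The gap was small in tumours 1 and 8, where Lmx1b stood at 6.97 and 6.83, against 5.37 to 5.76 in the other 3 tumours on the deposited log2 scale. Without length subtracted, Lmx1a exceeded Lmx1b in 3 of 5 tumours. Pbx3 exceeded Pbx2, a further TALE-class partner gene, by 0.29 ± 0.15, above 0 in 5 of 5 tumours, and by 1.14 with the longest annotated transcript as length. With that length Pax6 exceeded Eomes by 5.54 and Barhl1 exceeded Lhx9 by 10.03, so the sizes of these gaps depended on the length used.

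**Figure D2:**
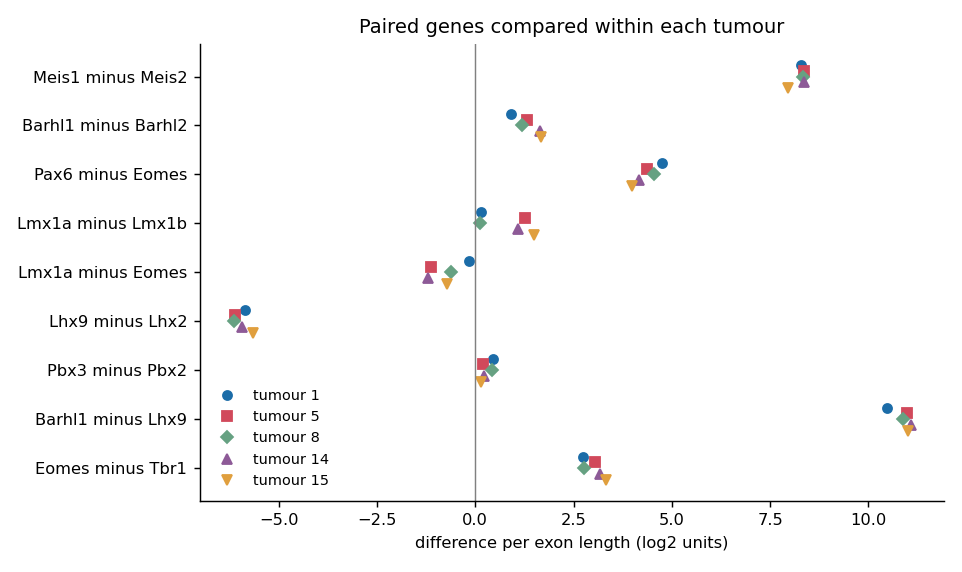
Differences between paired genes within each tumour, in log2 units per exon length; symbols are tumours and the vertical line marks equal levels. Meis1 minus Meis2 lies between 7.95 and 8.36, while Pbx3 minus Pbx2 lies between 0.14 and 0.46.

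Around the 8 factors, their gene families ranged widely. Of 18 TALE homeobox genes, 14 had a mean of at least 5 and 7 of at least 10, against 77.2% and 29.4% of all genes. The count at a mean of 5 is near that share, so it does not set this family apart. Meis3 and Meis1 led this family on the length-scaled log2 scale, and Irx4, an Iroquois gene, was the lowest at -0.51. The lead of Meis3 depended on the length subtracted. As deposited it averaged 10.12, below Meis1 at 11.80 and Pbx3 at 10.72. Of the 12 LIM homeobox genes listed, 11 were measured, 6 had a mean of at least 5, and Lhx1 led at 9.68 length-scaled, followed by Lhx2 at 5.72. Lhx9 was the lowest of these 11. All 10 LIM cofactors had a mean of at least 5, where the share over all genes was 77.2%. Ldb1, the adaptor that joins LIM homeobox proteins into complexes, averaged 10.58 on the length-scaled log2 scale. On that scale Ssbp3, which binds Ldb1, averaged 9.85, while Lmo1 was the lowest cofactor at 5.35. Lmo2, a LIM-only protein, varied by 1.08 log2 units between tumours, with tumour 15 the lowest and tumour 5, at 10.08, the highest. Among the 12 measured BarH, PAX and T-brain relatives, 6 had a mean of at least 5, 3 of them Barhl1, Pax6 and Eomes, and Barx1 was the lowest.

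**Figure D3:**
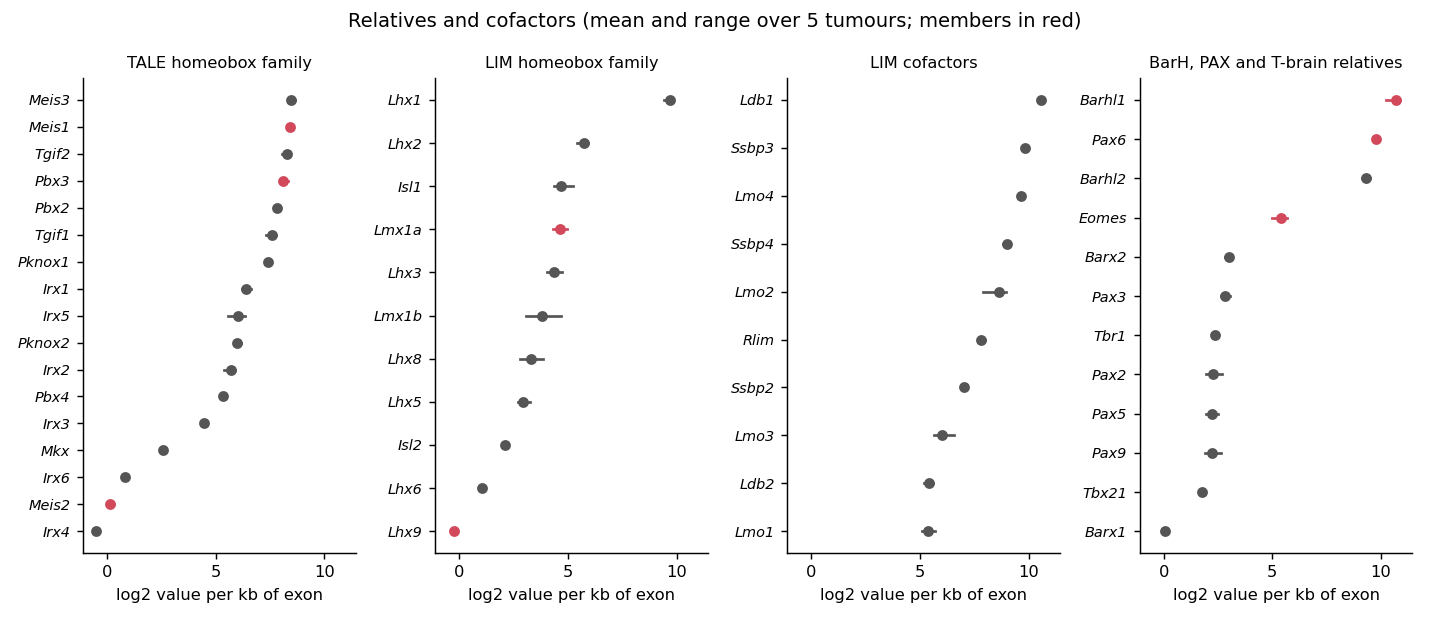
Mean (dot) and range (bar) over 5 tumours of genes of the factors’ families and cofactors, in log2 value per kb of exon; red marks the factors described here. Barhl1 and Pax6 lead their panel, whereas Meis2 and Lhx9 lie near or at the foot of theirs.

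Between tumours, 4 of the 6 factors with a mean of at least 5 had SDs above that of the median gene. None of the 6 spanned over 2-fold, against 3.79% of the 13691 genes with such a mean. For 6 genes this count is near that share, so it does not set the factors apart. Barhl1 (1.54-fold), Lmx1a (1.56-fold) and Eomes (1.58-fold) spanned over 1.5-fold, that is 3 of 6, against 14.7% of genes. These 3 had SDs above 86.5%, 90.6% and 87.2% of genes, while Pax6 and Meis1 were above 33.1% and 36.3%. The median SD of the 6 factors was 0.19, beside 0.11 over all genes of this level. The count of 3 rested on single tumours: without tumour 1, and likewise without tumour 15, 1 factor remained over 1.5-fold, against 12.2% and 10.5% of genes. Without tumour 1 the range of Barhl1 was 0.23 in place of 0.62, and that of Eomes 0.37 in place of 0.66 log2 units.

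Barhl1 and Eomes were both lowest in tumour 1. Their deviations from their own means were -0.42 and -0.38 log2 units in tumour 1. Among all genes with a mean of at least 5, 16.9% were lowest in tumour 1, as were 2 of the 6 factors. After each gene was centred on its own mean, the root mean square difference between Barhl1 and Eomes over the 5 tumours was 0.09 log2 units, smaller than for all but 0.263% of genes compared with Barhl1. This was the lowest such share among the 15 pairs of the 6 factors. Pax6 and Meis1, which vary less, differed by 0.04, and Barhl1 differed from the other 4 factors by 0.22 to 0.42. Atoh1, the rhombic lip proneural factor for which the Cre driver is named, was also lowest in tumour 1, with 8.00, 8.17, 8.27, 9.18 and 9.49 in tumours 1, 5, 8, 14 and 15. Atoh1 and Eomes were both highest in tumour 15 and second in tumour 14, whereas Barhl1 was highest in tumour 14. Pax6 and Meis1 were both highest in tumour 5 and lowest in tumour 15, within ranges of 0.18 and 0.24; with columns centred on their medians Pax6 was highest in tumour 8.

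The promoter windows of Barhl1 and Eomes are shown because these genes had close profiles over the tumours. They lie at chr2:28916619-28916918 on the minus strand and chr9:118477939-118478238 on the plus strand of GRCm38.p6, printed 5′ to 3′ on the gene's strand with the same motifs in capitals.
Barhl1: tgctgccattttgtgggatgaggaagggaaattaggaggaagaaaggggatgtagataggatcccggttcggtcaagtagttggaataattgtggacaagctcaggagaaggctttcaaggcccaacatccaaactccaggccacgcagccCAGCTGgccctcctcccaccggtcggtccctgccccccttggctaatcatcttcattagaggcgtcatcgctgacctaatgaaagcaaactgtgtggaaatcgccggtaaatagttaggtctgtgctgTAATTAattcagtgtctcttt
Eomes: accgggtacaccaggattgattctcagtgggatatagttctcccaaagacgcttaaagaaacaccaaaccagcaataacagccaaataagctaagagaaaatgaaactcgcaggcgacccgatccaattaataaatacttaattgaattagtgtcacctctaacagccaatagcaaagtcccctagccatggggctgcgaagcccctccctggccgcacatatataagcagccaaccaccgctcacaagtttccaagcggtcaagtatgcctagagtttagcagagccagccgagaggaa
The Barhl1 window held CAGCTG at position 152 and TAATTA at position 280, counted from its 5′ end. The Eomes window held none of the 5 motifs. Among 32851 RefSeq windows of this kind, 16.3% held CAGCTG, 17.2% CAGATG, 5.29% TAATTA, 19.2% TGACAG and 0.253% GACCACCCA. A second Barhl1 window, from another transcript start, held CAGCTG and TGACAG. A match in letters does not show a bound site.

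**Figure D4:**
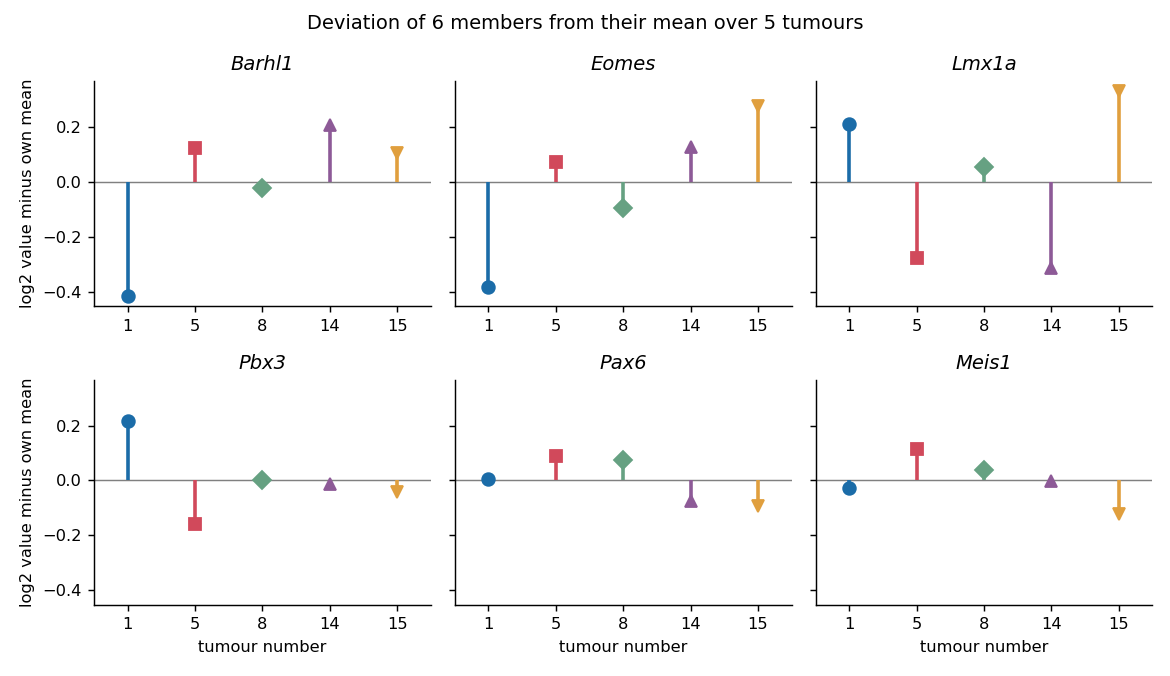
Deviation of 6 factors from their own mean over 5 tumours, in log2 units, for each tumour. Barhl1 and Eomes fall furthest below their means in tumour 1, where Pbx3 lies 0.22 and Lmx1a 0.21 above theirs.

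The genes most like each variable factor over the 5 tumours were found by the same root mean square difference among 13690 other genes. Nearest to Barhl1 were Mtcl1 (0.06), Gm2061 and Tmeff2, against a median of 0.24 over all genes. Nearest to Eomes were Cfap44 (0.03), Syt6 and Rgs20, against 0.25. For Lmx1a they were Ptpn14 (0.03), Thy1 and Copz2, against 0.28, and for Pbx3 B930095G15Rik (0.02), Panx1 and Maml3, against 0.15. With 5 tumours, close profiles are common, and these names are a description of the 5 libraries.

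Marker genes of the cells that can hold these factors were set beside them. Granule lineage markers were high, with Zic1 at 15.08 and Nfib at 15.29 as the highest of the progenitor and differentiating lists. The progenitor list, without Barhl1, had medians of 12.36 to 13.00 in the 5 tumours, and the differentiating list 13.44 to 13.76. The tumours stood in another order by Eomes than by the other unipolar brush cell markers. The 6 markers besides Eomes and Lmx1a had medians of 7.46, 9.13, 8.24, 8.10 and 7.54 in tumours 1, 5, 8, 14 and 15, highest in tumour 5, where Calb2, also made by other cerebellar neurons, peaked at 8.79. Mature granule neuron markers, which include Calb2, had their highest median in tumour 5, at 8.87 against 7.57 to 8.27. Of the 10, 6 were highest there, against 24.1% of genes with a mean of at least 5. Of the other 4, Rbfox3, Cbln1 and Etv1 were highest in tumour 15 and Reln in tumour 1. T and NK cells are a further source of Eomes, and 2 of 10 of their markers were measured: Cd3g lay at 0.45 to 0.56, and Cd4, which macrophages can also make, at 5.80 to 6.55.

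The tumours stood in the same order by Lmx1a as by the median of the stromal markers, and in another order by the median of the choroid plexus markers. The 8 pericyte and fibroblast markers had medians of 10.86, 10.67, 10.80, 10.40 and 11.04 in tumours 1, 5, 8, 14 and 15, with tumour 15 highest and tumour 14 lowest, as for Lmx1a. Lmx1a differed little between tumours 5 and 14, and with columns centred on their medians it was lowest in tumour 5. Of these 8, 5 were highest in tumour 15, against 21.4% of genes averaging 5 or more, and 5 were lowest in tumour 14, against 13%. Of the rest, 2 were highest in tumour 1 and 1 in tumour 8, and 3 were lowest in tumour 5. No single marker of the 8 had the full order of Lmx1a. Col3a1, a fibrillar collagen, was highest in tumour 15, at 14.02, and lowest in tumour 5, at 12.57. The part of stromal cells in the Lmx1a values was not tested. The 9 choroid plexus markers, from a tissue that arises beside the Lmx1a-positive roof plate, had medians of 7.11, 8.23, 7.66, 7.47 and 7.35. In every tumour this median was the value of Aqp1, so the order of the medians is that of a single gene. Of the 9, 8 were highest in tumour 5, against 24.1% of genes averaging 5 or more, and Lmx1a was low there at 6.11. Ttr, the defining choroid plexus transcript, reached 14.71 in tumour 5, against 13.01 to 13.17 in the other 4 tumours.

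**Figure D5:**
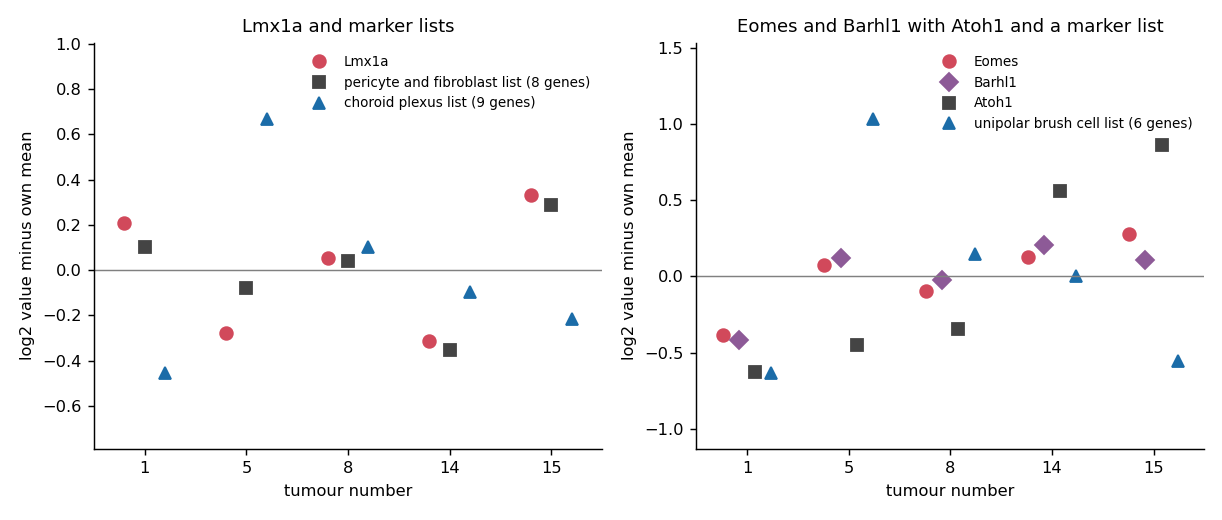
Lmx1a with the medians of the stromal and choroid plexus lists (left), and Eomes and Barhl1 with Atoh1 and the median of the unipolar brush cell list without Eomes and Lmx1a (right), each as log2 value minus its own mean over 5 tumours. Lmx1a and the stromal list are both highest in tumour 15 and low in tumours 5 and 14; the choroid plexus and unipolar brush cell lists are highest in tumour 5.

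Lists of other cell types had these lowest and highest medians over the 5 tumours: cerebellar nuclear neuron markers besides Lhx9 and Meis2 7.56 and 8.05, GABAergic precursor and interneuron 5.19 and 5.74, Purkinje cell 7.91 and 8.47, endothelial 9.39 and 9.98, oligodendrocyte 10.47 and 11.63, oligodendrocyte precursor 11.07 and 11.61, astrocyte and Bergmann glia 11.73 and 12.36, and microglia and macrophage 9.19 and 10.02. The nuclear neuron list without Lhx9 and Meis2 held 3 genes, and its median was the value of Lhx2 in every tumour. The GABAergic median was likewise the value of a single gene in every tumour, while Lhx1 in that list averaged 11.71. Among these markers Slc17a6, a glutamate transporter gene of many excitatory neurons, averaged 10.25 and Lhx2 7.86, while Tbr1 averaged 4.83 beside the low Lhx9 and Meis2. All 8 oligodendrocyte markers and all 8 markers of microglia and macrophages peaked in tumour 5, and 24.1% of all genes with a mean of at least 5 were highest there. Of the 6 factors 2 were highest in that tumour, Pax6 and Meis1, and 1, Meis1, after columns were centred on their medians. The part of these cells in the values of the 8 factors was not tested.

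Annotated exons of Meis1 overlap those of Gm37818 on the same strand and Gm16140 on the opposite strand, and Eomes exons overlap Gm33460 on the opposite strand by 118 bases. The libraries were made with a strand-specific protocol, but the strand setting of the counting is not given in the sources used here, so reads of these overlaps cannot be assigned with certainty. No overlapping exon was annotated for the other 6 factors.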

How the data were processed

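RNA from 5 tumour cell samples of 1 group was sequenced as strand-specific mRNA libraries, per the labels' protocols. The deposited values are on a log2 scale. They are taken to be regularised-log values from DESeq2, given the table's short name in the labels and the tools in the submitters' processing notes, which name STAR 2.4.1, featureCounts of Subread 1.4.6, DESeq2, mm10 and GRCm38. The sources used here do not give the annotation, the gene filter or the DESeq2 version. Of 7 columns, 2 match no labelled sample and were not used, although they may have entered the transformation. Counts were not used, so depth is unknown and no counting error could be stated; column medians lay between 8.51 and 8.58.

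From these values, means, SDs and ranges over 5 tumours were computed, and exon lengths were taken from GENCODE M21 (GRCm38) for the 97.5% of symbols matching exactly 1 gene. Pairs were tested by exact permutation of the signs (two-sided, 32 patterns) with Benjamini-Hochberg adjustment over 10 pairs. Variation over 2-fold was counted above a mean of 5. The 8 genes, the 10 pairs, the gene lists and the likeness measure were chosen with earlier results of these data known. Named genes were the 8 factors, their pair partners, the 2 highest and 1 lowest per exon length of each family list, the highest marker of each cell type list, genes of these lists spanning over 2-fold, and the 3 nearest genes of each variable factor; of the genes this rule gives, those that bear on the 8 factors are described, and a few are not reported here. Cd3g was named after its values were seen. Promoter windows are from RefSeq (GRCm38.p6), which held windows for 7 of the 8 genes. Steps were tested on simulated data. Python 3.11.15, numpy 2.4.6, pandas 2.3.3, scipy 1.17.1 and matplotlib 3.10.9 were used.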

Additional observations from a re-analysis of the deposited data

Results flagged for a closer look

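Among 102 values looked at (72 genes, 10 pairs and 20 lists), 5 had 1 tumour far from the other 4, with a gap to the nearest tumour over 0.71 of the whole range, and chance alone marks about 1 in 20. Of the pairs of factors, the length-scaled difference of Meis1 minus Meis2 stood apart in tumour 15, at 7.95 against 8.28 to 8.36 in the other tumours. Meis2 has a mean under 5, where differences between tumours are shrunk by the transformation, so the size of this gap is uncertain. The other 4 stood apart in tumour 5. Ttr was 14.71 there against 13.01 to 13.17, and Kcnj13, a choroid plexus potassium channel gene, was 7.35 against 5.99 to 6.14. Flt1, an endothelial receptor gene, was 10.98 against 9.83 to 10.15, and the median of the Purkinje cell list was 8.47 against 7.91 to 8.06. None of the 8 factors by itself stood apart in this way.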

How the results depend on the processing

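The signs of the 9 pair differences given were kept without length subtraction, with the longest annotated transcript as length, with columns centred on their medians and without each tumour in turn, and none of them passed 0.05 under any of these; with 4 tumours the exact test cannot go below 0.125. Their sizes depended on the length. Without length subtraction and with the longest transcript in turn, Pax6 minus Eomes was 5.86 and 5.54, Lhx9 minus Lhx2 -4.83 and -5.63, Barhl1 minus Lhx9 9.60 and 10.03, Barhl1 minus Barhl2 2.10 and 1.44, Pbx3 minus Pbx2 1.03 and 1.14, and Meis1 minus Meis2 8.06 and 7.60. Without length subtraction Lmx1a minus Lmx1b was 0.30 (adjusted p = 0.375). The order of neighbouring factors, whose alternatives were added after seeing the data, was less firm. Barhl1 minus Pax6 was -0.67 without length subtraction and -0.39 with the longest transcript, and Meis1 minus Pbx3 was 1.08 and -0.32. With these same 2 settings in turn, Pax6 minus Meis1 was 1.497 and 2.27, Pbx3 minus Eomes 3.28 and 3.60, Lmx1a minus Meis2 2.65 and 3.36, and Meis2 minus Lhx9 0.71 and 0.56. These shifts follow from the lengths subtracted. The count of factors over 2-fold was 0 under each filter, scaling and left-out tumour, and 3 at 1.5-fold. The count at 1.5-fold, with settings added after seeing the data, ranged from 1 to 3 when 1 tumour was left out. With columns centred on their medians Pax6 was highest in tumour 8 in place of tumour 5, and Lmx1a was lowest in tumour 5 in place of tumour 14. No paired analysis was possible because the samples form 1 group. Since depth is unknown and low values are pulled together, the sizes of differences between tumours at Meis2 and Lhx9 are uncertain.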
